A study of Mus musculus with 18 samples.

Results

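The Arp2/3 complex was followed through the RNA-seq of mouse marrow-derived mesenchymal stem cells (MSC) by the genes of its subunits. The members were the rows of the deposited count table that map to Actr2, Actr3, Actr3b, Arpc1a, Arpc1b, Arpc2, Arpc3, Arpc4, Arpc5 and Arpc5l. All 10 were found among the 54347 genes of the table, and all 10 had an adjusted p in every comparison. MSC came from male C57BL/6J mice and were grown as adherent cultures of bone marrow origin. In the first experiment cells were untreated (control), or were given CK666, or were given cytochalasin D (CytoD). In the second, cells received a control siRNA (siControl), an siRNA against Arp4 (siArp4), or the Arp4 siRNA together with CK666 (siArp4+CK666), so every one of these libraries is from transfected cells. Each of the 6 groups held 3 libraries. All studies used a primary line that the laboratory had made from several mice, so the libraries are preparations of 1 line and p-values measure the spread between them, not between animals. A group with siControl and CK666 was not analysed here.

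The complex starts a new actin filament as a branch on the side of an existing one. Arp2 and Arp3 resemble actin and form the seed of the branch, while the ARPC subunits hold the complex together and bind the mother filament. Nucleation promoting factors of the WASP and WAVE families switch it on downstream of the small GTPases Rac1 and Cdc42, and coronins, GMF and Arpin limit or undo branching. Branched actin drives the spreading edge of MSC and endocytosis, and the complex has also been found in nuclei. CK666 is a small molecule that holds Arp2 and Arp3 apart in the inactive complex. CytoD caps the growing end of actin filaments. Arp4, the product of Actl6a, is named for its likeness to actin but is no subunit of Arp2/3; it belongs to chromatin remodelling complexes.

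The members lie on 5 chromosomes of the GRCm38 genome. Actr2, which encodes Arp2, spans chr11:20062304-20112913 on the minus strand, and Actr3, which encodes Arp3, spans chr1:125392905-125435727 on the minus strand. The Arp3 paralogue Actr3b lies at chr5:25759997-25850688 on the plus strand. Arpc1a and Arpc1b encode alternative forms of the propeller subunit ARPC1. They are neighbours on the plus strand of chromosome 5, at chr5:145083830-145108761 and chr5:145114215-145130705, 5453 bases apart. Arpc2 (chr1:74236084-74268209, plus) and Arpc4 (chr6:113378115-113390448, plus) encode the paired core subunits that touch the mother filament. Arpc3 (chr5:122391878-122414184, plus) encodes the subunit beside Arp3. Arpc5 (chr1:152766542-152775597, plus) and Arpc5l (chr2:39005348-39015877, plus) encode alternative forms of the ARPC5 subunit, which tethers Arp2.

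Total counts ran from 18075610 to 24733212 per library, and the 10 members took 0.225% to 0.301% of them. Of 12 stromal markers 10 had a mean count of at least 10, while Thy1 stayed under 1 count in every library. Summed over the list, stromal markers stood at 4891 to 6005 CPM (counts scaled by library total) with CK666, against 9783 to 10503 in control cells and 14070.1 to 14701 with CytoD. In transfected cells they stood at 5654 to 12025 in siControl, 10787 to 12315 with siArp4 alone and 5679 to 6994 with siArp4+CK666. Their part in the results was not tested. Of 10 haematopoietic markers 3 reached that mean, with a summed level of 6.46 to 16.4 CPM, and Itgam and Cd3e were under 1 count; no endothelial marker of 5 reached it. The knockdown target Actl6a had normalized counts of 720.1, 1127 and 841 in siControl. They were 48.8, 57.2 and 19.04 with siArp4 and 9.52, 22.9 and 17.9 with siArp4+CK666. Every knockdown library was below every siControl library.

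The libraries also differed in how counts depended on transcript length. Over 10317 genes, the slope of a gene's log2 level, relative to its mean over libraries, on log2 transcript length lay between 0.11 and 0.23 in control and CytoD libraries. It was -0.55 in siControl replicate 2 and -0.30 in siControl replicate 3, against 0.08 in siControl replicate 1. CK666 replicate 1 had a slope of -0.14, while the other CK666 libraries had 0.26 and 0.15. In siControl replicate 2 the 1584 genes with transcripts under 1500 bases were at a median of 1.12 above their mean on the log2 scale. Subunit transcripts run from 899 bases for Arpc3 to 3631 bases for Actr2, and the values of those libraries are given beside the results they touch.

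**Figure D1:**
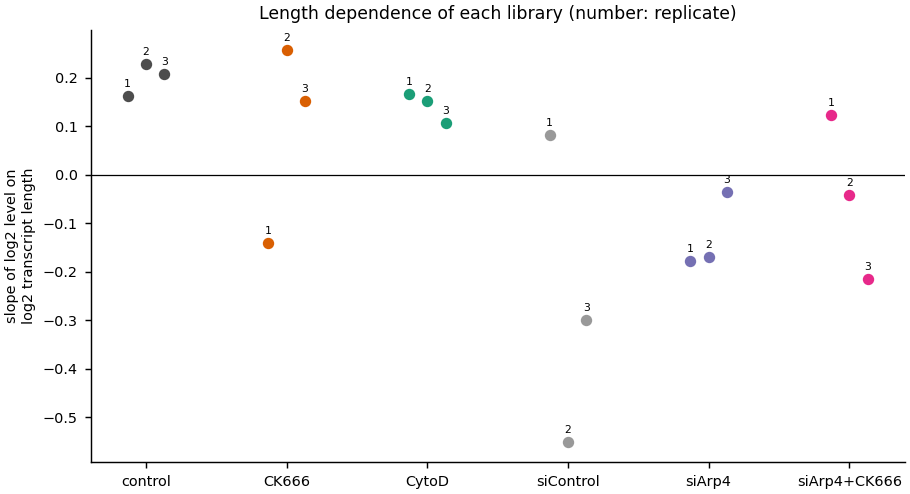
Slope of log2 level on log2 transcript length in each of the 18 libraries (y axis, log2 units per doubling of length), by group (x axis), with the replicate number at each point. The siControl libraries spread from -0.55 to 0.08 and CK666 replicate 1 lies below the other CK666 libraries.

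Levels were compared between members as normalized counts per kilobase of the principal transcript, a scale on which genes of different length can be ranked. In control cells Arpc2 was highest at 7091 ± 129 (SD, n = 3), followed by Actr3 at 4856 ± 214. Arpc5 (2846 ± 133), Arpc1b (2694 ± 35.7), Arpc4 (2313 ± 114) and Arpc3 (2238 ± 149) followed. Of these neighbours only Arpc4 and Arpc3 overlapped in their replicates on this scale. This part of the order rests on the length used. The principal transcripts of Arpc5, Arpc1b and Arpc4 have 1914, 3105 and 2270 bases, while their coding transcripts have medians of 1825.5, 2249.5 and 1796.5. The order among these genes is thus not settled. Actr2 stood at 1637 ± 22.4, Arpc1a at 1350 ± 57.2 and Arpc5l at 748.2 ± 25.4. Actr3b, at 18.6 ± 4.36, was near the bottom of what could be measured, with 26.3 to 40.4 normalized counts per control library. The transcripts of Arp3 were thus more abundant per length than those of Arp2, and the paralogue Actr3b added little. Arpc2 kept the highest level in CK666, CytoD, siControl and siArp4 cells, though in siControl its replicates overlapped those of Arpc3. In siArp4+CK666 Actr3 was at 6959 ± 332 and Arpc2 at 6293 ± 723, with overlapping replicates. In siControl each member except Actr3b overlapped its neighbour in the order.

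**Figure D2:**
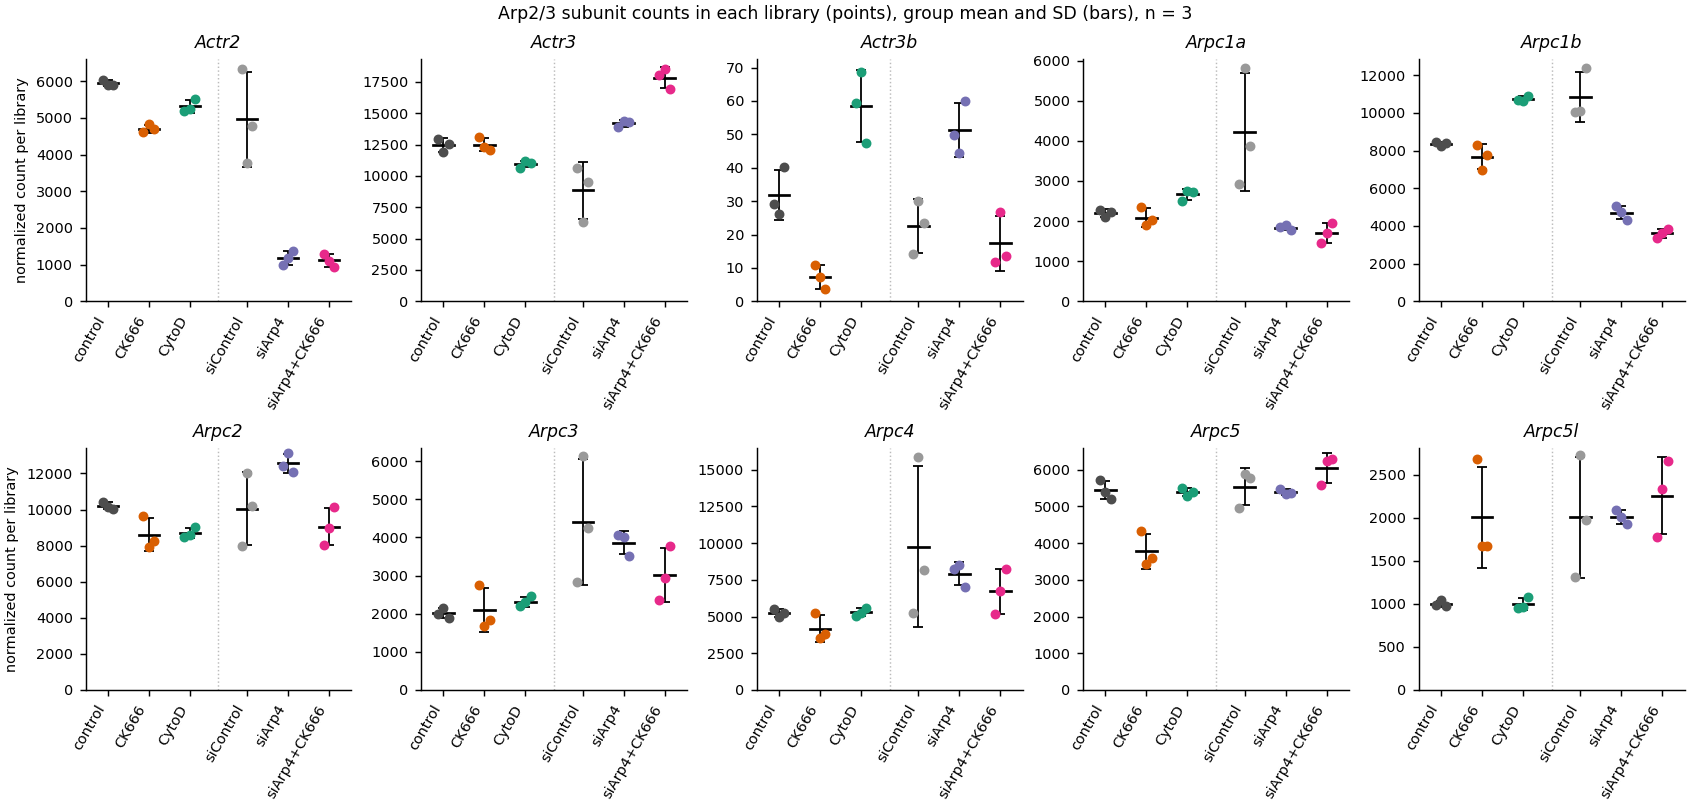
Normalized count of each of the 10 subunits (y axis, from 0, own scale per gene) in every library, grouped by condition (x axis). Points are libraries, horizontal lines are group means and bars are 1 SD (n = 3); the dotted line parts the experiments, which were normalized apart. Actr2 lies near 1000 in all knockdown libraries and between 3766 and 6332 in siControl.

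CK666 blocks the activity of the complex, and the first comparison asked how the subunit transcripts stood after the drug. Actr2, Actr3b and Arpc5 fell and Arpc5l rose, so 4 of 10 members passed the test (DESeq2 Wald test, adjusted p below 0.01), beside 30.0% of the 14597 genes tested. Of the 4, 2 changed by more than 2-fold, beside 11.0% of all genes tested. Arpc5l did so narrowly, at 1.001 on the log2 scale, and was under 2-fold without CK666 replicate 1 (0.74) and with the length trend removed (0.82). The median log2 fold change of the 10 members was -0.18, and that of all genes tested was 0.01.

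Arpc5l, the alternative ARPC5 form, had normalized counts of 990.5, 1040 and 974.9 in control and 2683, 1666 and 1667 with CK666. Every CK666 library was above every control library, and CK666 replicate 1 was the highest. The change came to 1.001 ± 0.18 on the log2 scale (SE; DESeq2 adjusted p = 4.3e-07). Leaving out each library in turn gave log2 fold changes from 0.74 to 1.13, the lowest without CK666 replicate 1. Arpc5l overlaps exons of the ribosomal protein gene Rpl35 on the opposite strand by 62 bases. Rpl35 had a mean count of 14046 and the libraries were unstranded, so some Arpc5l reads could belong to it. None of the 1309 words of 31 bases in the principal Arpc5l transcript was found in transcripts of other genes.

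Arpc5, the other form, moved the opposite way. Its normalized counts were 5720, 5405 and 5214 in control and 4318, 3425 and 3598 with CK666. The groups did not overlap, and the change came to -0.53 ± 0.11 on the log2 scale (DESeq2 adjusted p = 7.5e-06).

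Actr2 fell from 6035, 5884 and 5908 normalized counts to 4609, 4822 and 4688. The 3 CK666 libraries were close together and all below control, at a log2 change of -0.34 ± 0.07 (DESeq2 adjusted p = 8.6e-06). When all 18 libraries were fitted together, where the siControl spread enters the error, the same change of -0.35 had an adjusted p of 0.105. Actr3b had 29.0, 26.3 and 40.4 normalized counts in control and 10.8, 7.14 and 3.72 with CK666. All CK666 values were lower, and the change came to -2.15 ± 0.49 on the log2 scale (DESeq2 adjusted p = 6.5e-05), on counts that are small in every library.

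The other 6 members did not pass. Actr3, the partner of Arp2, had a log2 fold change of 0.01 ± 0.08, Arpc1a of -0.08 ± 0.11, Arpc1b of -0.12 ± 0.09 and Arpc3 of 0.05 ± 0.18. Arpc2 (-0.25 ± 0.10, DESeq2 adjusted p = 0.031) and Arpc4 (-0.33 ± 0.15, adjusted p = 0.061) had values below control. CK666 replicate 1, whose length slope differed, held the highest CK666 value of both genes, 9645 for Arpc2 and 5212 for Arpc4. Without that library both passed, at -0.33 (adjusted p = 2.1e-08) and -0.52 (adjusted p = 3.3e-11). With the length trend of each library removed, Arpc2 (-0.39), Arpc4 (-0.41) and Arpc1a (-0.21, adjusted p = 0.0045) passed on the lower side, making 7 members.

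With CytoD 1 member, Arpc1b, rose and passed, beside 29.6% of 13717 genes tested. None fell by the DESeq2 test, beside 16.0% of genes, while 3 had values below control at an unadjusted p under 0.05, as also by edgeR. Arpc1b had 8447, 8240.2 and 8412 normalized counts in control and 10656, 10621 and 10893 with CytoD. The groups lay well apart, at a log2 change of 0.36 ± 0.09 (DESeq2 adjusted p = 0.00019). Arpc1b shares 931 bases of exon with Pdap1 on the opposite strand, which had a mean count of 3016, so part of its count could belong to that gene. The Arpc1a value of 0.27 ± 0.11 did not pass (adjusted p = 0.035).

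Arpc5l, at 954.4, 968.0 and 1077 normalized counts with CytoD, overlapped control and had a log2 fold change of -0.00 ± 0.18. Arpc5 stood at -0.01 ± 0.11 and Arpc4 at 0.01 ± 0.15. Actr2 (-0.16 ± 0.07), Actr3 (-0.19 ± 0.08) and Arpc2 (-0.23 ± 0.10) had values below control that did not pass, with adjusted p of 0.051, 0.036 and 0.045 by DESeq2. Without CK666 replicate 1, which is in neither group but sets the shared estimate of spread, these 3 and Arpc1a passed as well, giving 5 members. Actr3b had 59.5, 68.7 and 47.4 counts, above all control values, at a log2 change of 0.88 ± 0.40 (adjusted p = 0.064).

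Between the drugs, 5 members passed, beside 31.8% of 15038 genes tested. This contrast shares its CK666 and CytoD libraries with the comparisons above. Arpc5l was higher with CK666 by 1.004 ± 0.18 on the log2 scale (DESeq2 adjusted p = 3.6e-07). Arpc5 (-0.51 ± 0.11, adjusted p = 1.2e-05), Arpc1b (-0.48 ± 0.09, adjusted p = 2.1e-07) and Actr3b (-3.03 ± 0.48, adjusted p = 2.7e-09) were lower. Arpc1a was at -0.35 ± 0.11 (adjusted p = 0.0049). The Arpc1a call was lost in edgeR (adjusted p = 0.016), when all 18 libraries were fitted together (adjusted p = 0.165) and when any 1 of 7 libraries was left out, with adjusted p up to 0.049, the exceptions being CK666 replicate 1 and CytoD replicate 1. Without CK666 replicate 1, Arpc3 (-0.40) and Arpc4 (-0.53) also passed.

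**Figure D3:**
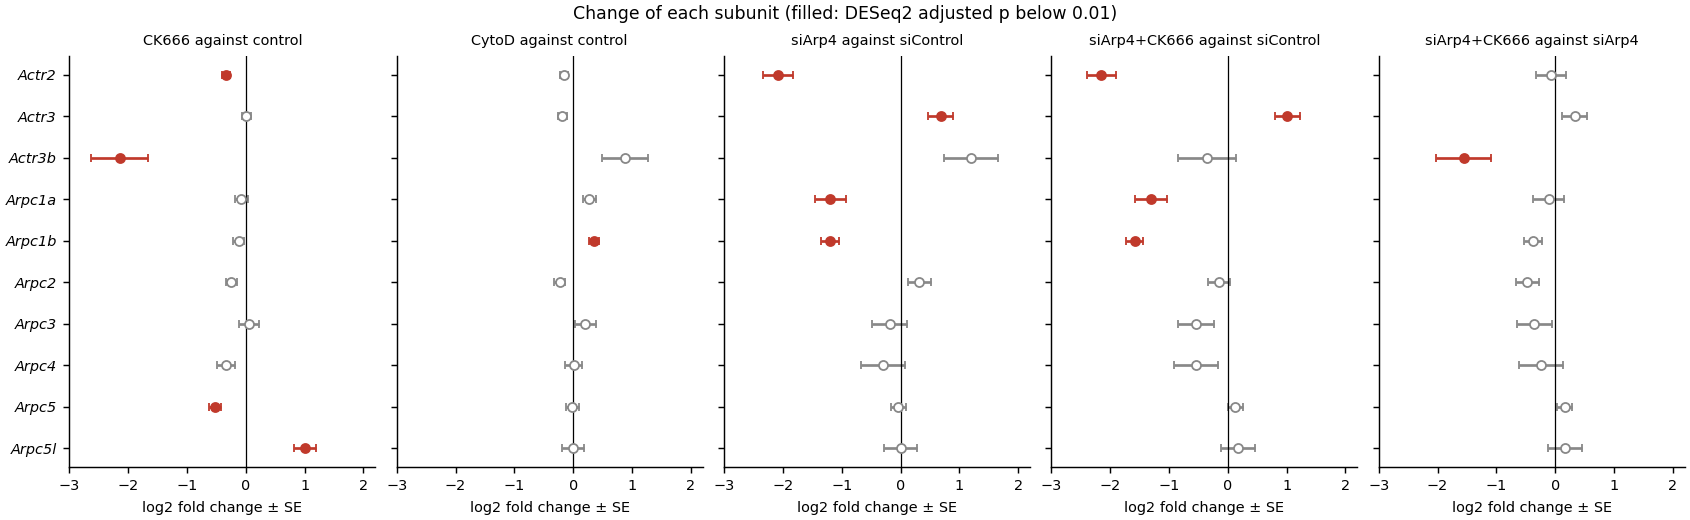
Log2 fold change of each subunit (x axis) with its standard error (bars) in 5 comparisons, 1 per panel; genes are on the y axis. Filled points passed at a DESeq2 adjusted p below 0.01. Actr2, Arpc1a and Arpc1b are below 0 and Actr3 above 0 in both knockdown groups against siControl.

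The knockdown of Arp4 asked how an actin-related protein of the nucleus bears on transcription, and among the subunits it went with a deep fall of Actr2. Actr2, Arpc1a and Arpc1b fell and Actr3 rose in siArp4 against siControl, so 4 of 10 members passed, beside 25.1% of 15415 genes tested. Of these, 3 exceeded 2-fold, beside 16.2%. The median of the 10 was -0.11, and that of all genes tested was -0.05. In bulk RNA, fewer cells of a type and less RNA per cell cannot be told apart. The study's methods list a single siRNA sequence against Arp4, so loss of Arp4 and other effects of that sequence cannot be told apart either.

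Actr2 had 6332, 3766 and 4789 normalized counts in siControl and 988.7, 1167 and 1363 in siArp4. The groups were far apart in spite of the spread of siControl, and the knockdown mean was 23.6% of the siControl mean. The change came to -2.08 ± 0.25 on the log2 scale (DESeq2 adjusted p = 2.8e-15; edgeR adjusted p = 0.00033). Leaving out each library in turn gave -2.25 to -1.87. Of the siControl libraries, replicate 2, with the steepest length slope, was the lowest for this long transcript.

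Arpc1a fell from 2934, 5819 and 3882 to 1852, 1892 and 1767 normalized counts. The siControl libraries spread widely, with replicate 2 highest, and all lay above the knockdown libraries. Its change came to -1.20 ± 0.26 on the log2 scale (DESeq2 adjusted p = 4.9e-05), or -0.98 with the length trend removed. Arpc1b had 10045, 10080.3 and 12400 counts in siControl and 5068, 4737 and 4331 in siArp4, again without overlap. Its change came to -1.20 ± 0.15 on the log2 scale (DESeq2 adjusted p = 8.4e-14). Both forms of ARPC1 were thus at 43.6% and 43.5% of their siControl means. The siControl cells themselves were above untransfected control, by 0.99 ± 0.21 on the log2 scale for Arpc1a and 0.42 ± 0.10 for Arpc1b.

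Actr3 moved up while its partner Actr2 moved down. It had 10673, 6339 and 9514 normalized counts in siControl and 13882, 14380.2 and 14337 in siArp4. All knockdown libraries were higher, and siControl replicate 2 was the lowest. The change came to 0.68 ± 0.21 on the log2 scale (DESeq2 adjusted p = 0.0049). This call was close to the threshold: edgeR gave an adjusted p of 0.025, and it was lost when siControl replicate 3, any siArp4 library or any siArp4+CK666 library was left out (adjusted p 0.010 to 0.038), while it held without siControl replicate 1 or 2. For Actr3, siControl itself was at -0.45 ± 0.14 against untransfected control. Actr3 shares 62.1% of its 31-base words with the processed pseudogene Gm8822, which had a mean count of 1.36.

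The remaining 6 members did not pass. Arpc5 stood at -0.04 ± 0.13 and Arpc5l at 0.00 ± 0.28, with knockdown libraries inside the siControl range of Arpc5l. Arpc2 had 12427, 13157 and 12087 normalized counts in siArp4 against 7953, 12006 and 10175 in siControl, a log2 fold change of 0.32 ± 0.19 (adjusted p = 0.193); with the length trend removed it passed at 0.55 (adjusted p = 4.7e-07). Arpc3 (-0.19 ± 0.30) and Arpc4 (-0.30 ± 0.38) could not be placed, since Arpc4 alone ran over 5233, 15871 and 8147 counts in siControl. Actr3b had 49.7, 44.3 and 60.1 counts against 14.3, 30.2 and 23.3, a log2 fold change of 1.204 ± 0.46 (adjusted p = 0.028). On these small counts it passed with the length trend removed (1.39, adjusted p = 0.0035) and with all 18 libraries fitted together (1.23, adjusted p = 0.0060).

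The promoters of the 4 members that passed are given for comparison, since 3 fell and 1 rose with the same knockdown. They are RefSeq sequences on GRCm38.p6, 300 bases each from 250 before to 50 after the annotated start, read along the strand of the gene. Actr2 is chr11:20112902-20113201 (minus), Actr3 is chr1:125435678-125435977 (minus), Arpc1a is chr5:145083619-145083918 (plus) and Arpc1b is chr5:145114006-145114305 (plus). Capitals mark matches, on either strand, to any of 7 searched motifs.
Actr2: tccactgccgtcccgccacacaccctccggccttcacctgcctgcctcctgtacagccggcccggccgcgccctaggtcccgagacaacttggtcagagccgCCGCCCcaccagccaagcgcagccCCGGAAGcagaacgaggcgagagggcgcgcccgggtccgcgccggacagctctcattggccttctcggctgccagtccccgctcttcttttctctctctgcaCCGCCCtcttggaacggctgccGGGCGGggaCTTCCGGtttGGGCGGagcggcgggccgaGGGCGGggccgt
Actr3: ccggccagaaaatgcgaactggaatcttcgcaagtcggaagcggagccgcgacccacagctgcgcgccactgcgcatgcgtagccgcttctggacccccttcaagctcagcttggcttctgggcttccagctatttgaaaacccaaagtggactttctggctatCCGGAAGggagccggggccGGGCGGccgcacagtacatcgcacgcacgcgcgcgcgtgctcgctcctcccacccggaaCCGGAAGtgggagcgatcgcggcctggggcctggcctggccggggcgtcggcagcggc
Arpc1a: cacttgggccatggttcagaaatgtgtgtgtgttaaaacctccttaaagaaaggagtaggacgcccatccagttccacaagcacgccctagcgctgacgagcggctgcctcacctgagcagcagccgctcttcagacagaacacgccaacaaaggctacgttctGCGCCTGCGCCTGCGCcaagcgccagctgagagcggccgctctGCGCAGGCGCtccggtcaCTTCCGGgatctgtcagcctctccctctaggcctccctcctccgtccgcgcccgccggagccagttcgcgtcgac
Arpc1b: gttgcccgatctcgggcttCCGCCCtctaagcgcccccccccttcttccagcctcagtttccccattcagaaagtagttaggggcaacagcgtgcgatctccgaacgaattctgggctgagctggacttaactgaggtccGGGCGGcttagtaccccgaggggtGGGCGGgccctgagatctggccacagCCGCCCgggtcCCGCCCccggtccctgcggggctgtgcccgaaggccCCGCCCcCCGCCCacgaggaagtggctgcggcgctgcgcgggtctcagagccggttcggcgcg
The searched motifs were those of ETS factors (CCGGAAG), Sp1 (GGGCGG), NRF1, YY1 (AAGATGGCG), TEAD (GGAATG), C/EBP-ATF composite sites (TGATGNAA) and the CArG box of SRF. Of the 10 members, 8 had a promoter in the RefSeq table, and Actr3b and Arpc5l had none. The ETS motif was in 5 of the 8 (Actr2, Actr3, Arpc1a, Arpc3 and Arpc4), beside 8.86% of 32851 promoters of the same length. The Sp1 motif was in 6 of 8, beside 35.7%, and the NRF1 motif in 3 of 8, beside 4.6%. The Arpc1b window held 7 Sp1 matches and no ETS match, while Arpc1a held 3 NRF1 matches, some of which overlap each other, and 1 ETS match. Actr2 held 2 ETS and 5 Sp1 matches, and Actr3, which moved the other way, held 2 ETS and 1 Sp1 match. The CArG box was in Arpc4 and the TEAD motif in Arpc2, beside 1.63% and 14.7% of promoters. Neither the C/EBP-ATF nor the YY1 letters were in any of the 8 windows, beside 3.97% and 1.4%.

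When CK666 was added to the knockdown, the set that passed against siControl was again Actr2, Arpc1a and Arpc1b below and Actr3 above. That made 4 of 10 members, beside 29.9% of 15415 genes tested, and all 4 exceeded 2-fold, beside 20.4%. The comparison shares its siControl libraries with that of siArp4. Actr2 had 1303, 1110.3 and 935.8 normalized counts, or 22.5% of siControl, and a log2 fold change of -2.15 ± 0.25 (DESeq2 adjusted p = 1.7e-16). Arpc1b had 3352, 3627 and 3849 counts, all below the siArp4 libraries too, with -1.59 ± 0.15 against siControl (adjusted p = 9.1e-24). Arpc1a, at 1450, 1709 and 1949 counts, had -1.31 ± 0.26 (adjusted p = 5.8e-06).

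Actr3 reached 18083, 18561 and 16908 normalized counts in siArp4+CK666, the highest of any group of that experiment. Its log2 fold change against siControl was 1.01 ± 0.21 (DESeq2 adjusted p = 9.3e-06), and it passed under all 15 alternatives. Arpc3 (-0.54 ± 0.30), Arpc4 (-0.54 ± 0.38), Arpc2 (-0.15 ± 0.19), Arpc5 (0.13 ± 0.13), Arpc5l (0.17 ± 0.28) and Actr3b (-0.35 ± 0.49) did not pass. Arpc3 passed at -0.78 (adjusted p = 0.0041) without siControl replicate 1, and Arpc5l at 0.53 (adjusted p = 1.1e-06) with the length trend removed.

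Within knockdown cells, CK666 left 1 member past the test, beside 9.90% of 14098 genes tested. Actr3b had 11.6, 26.7 and 13.7 normalized counts in siArp4+CK666 and 49.7, 44.3 and 60.1 in siArp4. The groups did not overlap, and the change came to -1.56 ± 0.47 on the log2 scale (DESeq2 adjusted p = 0.0089). On these small counts the call was lost in edgeR (adjusted p = 0.047), with the replicate number as a block (adjusted p = 0.016), and when siControl replicate 3, any siArp4 library, or siArp4+CK666 replicate 1 or 3 was left out (adjusted p 0.023 to 0.099). Arpc2 (-0.47 ± 0.19, adjusted p = 0.085) and Arpc1b (-0.38 ± 0.15, adjusted p = 0.072) had lower values in all siArp4+CK666 libraries but did not pass. Arpc2 passed without siControl replicate 1 (-0.47, adjusted p = 0.0090) and with the length trend removed (-0.40, adjusted p = 0.00089). With all 18 libraries fitted together both passed, Arpc2 at -0.49 (adjusted p = 0.0063) and Arpc1b at -0.40 (adjusted p = 0.0013). Actr2 was at -0.07 ± 0.25 and Actr3 at 0.33 ± 0.21.

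Whether CK666 acted alike with and without the knockdown was tested as the difference between its effects, siArp4+CK666 against siArp4 minus CK666 against control, over all 18 libraries. Without a group given siControl and CK666, the knockdown, transfection and experiment cannot be told apart in this contrast. Arpc5 passed, the single one of 10 members, beside 7.82% of 13511 genes tested. Its normalized counts fell with CK666 in untransfected cells, as given above, while in knockdown cells they were 5475, 5334 and 5364 without and 5582, 6248 and 6302 with the drug. All CK666 libraries were lower in the first case and all were higher in the second, where the change of 0.16 ± 0.13 did not itself pass (adjusted p = 0.492). The difference was 0.69 ± 0.15 on the log2 scale (DESeq2 adjusted p = 0.00011; edgeR adjusted p = 0.0097) and passed under all 24 alternatives, from 0.62 to 0.84.

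For Arpc5l the difference was -0.83 ± 0.35 and did not pass (adjusted p = 0.103), though it did with the length trend removed, at -0.58 (adjusted p = 0.00019). Its counts were 2090.2, 2005 and 1927 with siArp4 alone and 1771, 2336 and 2662 with siArp4+CK666, a spread within which no change could be read. Actr3b, which fell with CK666 in both settings, had a difference of 0.59 ± 0.62. Actr3 had 0.32 ± 0.19 and passed without siControl replicate 2 (0.32, adjusted p = 0.0024).

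The siControl cells were set beside untransfected control cells because every knockdown value rests on them. Of the 10 members 6 passed, beside 42.1% of 14491 genes tested, with 5 higher (beside 21.7%) and 1 lower (beside 20.4%). Arpc3 (1.19 ± 0.26), Arpc5l (1.05 ± 0.25), Arpc1a (0.99 ± 0.21), Arpc4 (0.95 ± 0.30) and Arpc1b (0.42 ± 0.10) were higher on the log2 scale in siControl, and Actr3 was lower (-0.45 ± 0.14), with DESeq2 adjusted p from 7.2e-06 to 0.0046. Transfection and experiment cannot be told apart here, and length dependence moved with the result. With the length trend removed, Arpc3 stood at 0.09 and lost its call (adjusted p = 0.292), Arpc5l was at 0.34 and Arpc1a at 0.48, and Arpc2, at 0.03 ± 0.15 before, passed at -0.56 (adjusted p = 7.5e-17). Arpc4 lost its call without siControl replicate 2, at 0.39 (adjusted p = 0.155), and without any 1 control library (adjusted p 0.013 to 0.022). Actr3 lost its call without control replicate 1 or 3 (adjusted p = 0.023 and 0.018) and with TMM size factors (adjusted p = 0.013). In edgeR both Actr3 and Arpc4 lost theirs (adjusted p = 0.013 and 0.015), leaving 4 members higher and 0 lower at that threshold, with 5 higher and 1 lower at an unadjusted p under 0.05. When only the libraries of the contrast were fitted, Actr3, Arpc4 and Arpc1b lost their calls (adjusted p = 0.157, 0.045 and 0.034). Actr2 passed without siControl replicate 1 (-0.42, adjusted p = 0.0083).

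Since paralogues take the same place in the complex, each pair was also read as a share within a library, from counts divided by transcript length. In control cells Arpc5l made up 19.8%, 21.6% and 21.1% of Arpc5 plus Arpc5l. With CK666 it made up 47.0%, 41.0% and 39.8%. The CK666 shares were all far above control, with a mean of 42.6% ± 3.86 against 20.8% ± 0.89 (SD, n = 3). CytoD left it at 20.9% ± 1.15. The exact two-sided permutation test gave p = 0.1 for CK666 against control, the smallest p that 3 against 3 allows, and 0.233 after Benjamini-Hochberg adjustment over the 21 share comparisons.

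In the transfected cells the Arpc5l share was 27.5%, 39.8% and 32.8% in siControl, 34.7% ± 0.72 in siArp4 and 34.6% ± 3.23 in siArp4+CK666. The knockdown groups lay within the siControl range. The Arpc1b share of the ARPC1 pair was 66.6% ± 0.66 in control, 65.9% ± 1.07 with CK666 and 67.9% ± 1.08 with CytoD, and the groups overlapped. It was 64.3%, 47.7% and 62.7% in siControl, 57.4% ± 1.43 in siArp4 and 52.8% ± 1.96 in siArp4+CK666. The value of siControl replicate 2 fell below every siArp4 library. All siArp4+CK666 libraries lay below the siArp4 libraries, with exact p = 0.1 and an adjusted p of 0.233. The annotated length of Arpc1b is uncertain, and with the median length of its coding transcripts the control share was 73.4%. Actr3b never exceeded 0.914% of the Arp3 pair in any library. In all, 9 of the 21 comparisons had groups that did not overlap, the count at which the exact p reaches 0.1. Leaving out each library in turn gave 9 to 13, the highest without siControl replicate 2. A group with a library left out separates more readily from another, so these counts are not like the first.

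The actin-related pair was read as a ratio. Per length, Actr3 exceeded Actr2 by a ratio of 2.97 ± 0.10 in control, 3.76 ± 0.22 with CK666 and 2.92 ± 0.10 with CytoD. In siControl the ratio was 2.39, 2.38 and 2.81, close together although the separate counts of both genes varied. It was 19.9, 17.4 and 14.9 with siArp4 alone and 19.7, 23.7 and 25.6 with siArp4+CK666. Every knockdown library stood above 14 and no other library above 4.01.

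**Figure D4:**
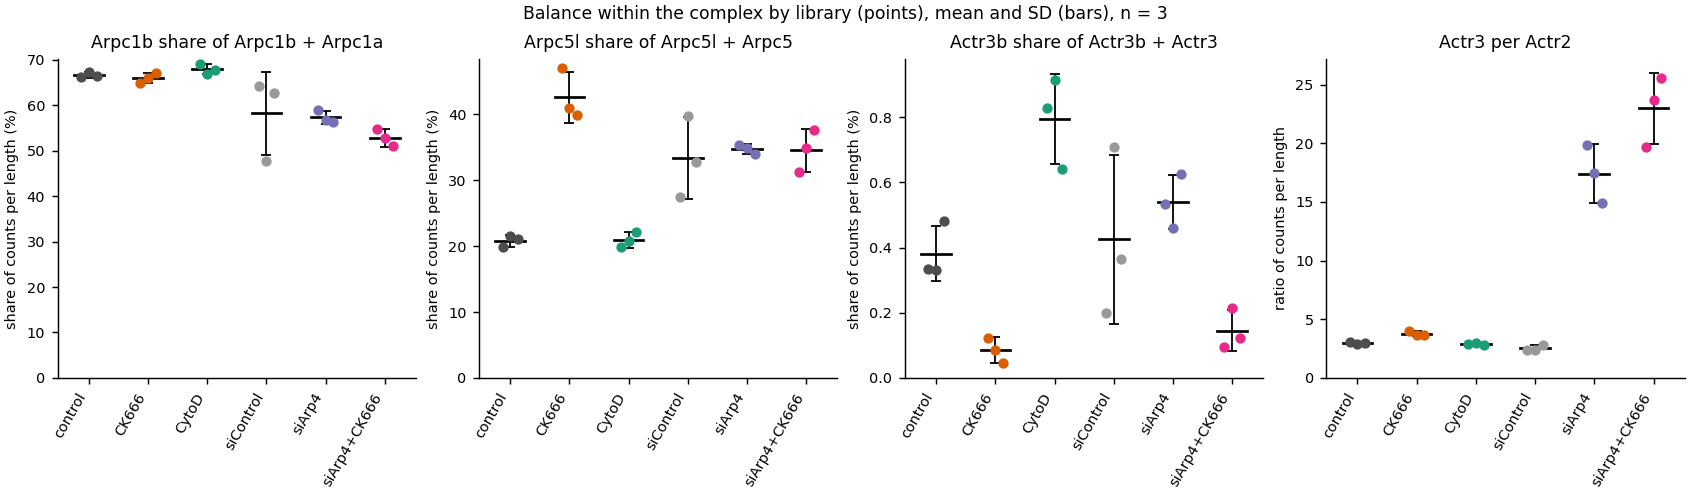
Share of Arpc1b, Arpc5l and Actr3b within their paralogue pairs (y axes, percent of counts per length) and the ratio of Actr3 to Actr2 counts per length (last panel), by group (x axes). Points are libraries, lines means and bars 1 SD (n = 3). The Arpc5l share is 39.8% or more in every library of untransfected cells with CK666, and it is 39.8% in siControl replicate 2 as well. It is 31.2% to 37.6% with siArp4+CK666. The Actr3 to Actr2 ratio is 14.9 or more in every knockdown library.

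Over the 18 libraries the subunits did not move as a block. Pearson's r between log2 levels of pairs ran from -0.88 for Actr3 with Arpc1a to 0.95 for Arpc3 with Arpc4. Actr2 and Arpc1b were alike (r = 0.89), as were Arpc1a and Arpc1b (r = 0.74). These values describe libraries that share groups and length dependence, and are given without a test. The mean of the standardized levels of the 9 abundant members was most like Eef1akmt1 (r = 0.97), Ndufa9 (r = 0.96), Prelid1 (r = 0.96), Lsm6 (r = 0.96) and Irf3 (r = 0.96) among 10310 genes. The same mean had r = -0.91 with the length slope of the library, and 591 genes had r above 0.8. It was highest in siControl replicates 2 and 3, at 1.13 and 0.66 SD units, and lowest in CK666 replicate 2, at -0.79.

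The regulators of the complex were read from a list of 36 genes in 6 classes. With CK666, 9 rose and 6 fell of 31 tested, beside 15.3% and 14.7% of all genes tested. With CytoD 8 rose and 3 fell of 30, beside 13.6% and 16.0%. Between the drugs 2 were higher and 7 lower with CK666 of 31, beside 16.9% and 14.9%. In siArp4, 3 rose and 5 fell of 32, beside 11.9% and 13.1%, and in siArp4+CK666 5 rose and 4 fell of 32, beside 14.0% and 15.8%. Within knockdown cells CK666 left 1 higher and 3 lower of 30, beside 3.82% and 6.07%.

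Among activators of the first experiment, the GTPases Rac1 and Cdc42 both fell with CK666. Rac1 went from 10533, 9196 and 9327 to 6340, 5953 and 6439 normalized counts, a log2 fold change of -0.63 ± 0.10 (DESeq2 adjusted p = 3.9e-10). The WAVE partner Cyfip1 fell (-0.81 ± 0.10, adjusted p = 2.4e-14), the WAVE partner Abi3 rose from a low level (1.89 ± 0.33, adjusted p = 9.5e-08), and the WASH complex member Washc3 and the nucleation factor Jmy rose (0.997 ± 0.19 and 0.81 ± 0.19). The Jmy call was lost when all 18 libraries were fitted together (0.80, adjusted p = 0.035). Of the 4 WASH partners 3 rose with CK666, beside 15.3% of all genes tested, and 2 with CytoD, beside 13.6%. None fell at an adjusted p below 0.01. A WASH call with CytoD was lost in edgeR (adjusted p = 0.020). Coro1c, a coronin, fell with both drugs, at -1.24 ± 0.09 on the log2 scale with CK666 (adjusted p = 7.8e-42) and -0.91 ± 0.09 with CytoD (adjusted p = 6.5e-23); both contrasts use the same control libraries. Coro1b rose with CytoD by 0.92 ± 0.08 (adjusted p = 1.8e-26), and the cortactin relative Hcls1 by 1.35 ± 0.31 (adjusted p = 7.8e-05). Abi3 (1.06 ± 0.34, adjusted p = 0.0063), Cyfip1 (-0.30 ± 0.10, adjusted p = 0.0091) and the debranching factor Gmfb (-0.31 ± 0.08, adjusted p = 0.00022) passed with CytoD as well. The calls of Abi3 and Cyfip1 were lost in edgeR (adjusted p = 0.015 and 0.024), with the replicate number as a block (0.014 and 0.025), when all 18 libraries were fitted together (0.022 and 0.025), and without most single libraries (adjusted p up to 0.062 and 0.076). That of Cyfip1 was also lost with the length trend removed (adjusted p = 0.032). The Gmfb call was lost with all 18 libraries (adjusted p = 0.109) and without CytoD replicate 3 or control replicate 1 (adjusted p = 0.011 and 0.013).

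In the knockdown, activators passed in both directions. Of the 7 inhibitors and debranching factors tested in siArp4 only Arpin passed, beside 25.1% of all genes tested in either direction. Cyfip1 had 3151, 2403 and 2594 normalized counts in siControl, 1251, 1269 and 1372 with siArp4 alone and 740.2, 680.1 and 621.8 with siArp4+CK666. The 3 groups did not overlap, and siArp4+CK666 was below siArp4 (log2 fold change -0.93 ± 0.16, DESeq2 adjusted p = 5.2e-07). Cortactin (Cttn), which stabilizes branches, rose to 16006, 15785 and 16664 from 7285, 6119 and 6723, a log2 fold change of 1.27 ± 0.13 (adjusted p = 3.1e-20). Wipf1, the partner of WASP proteins, rose by 1.79 ± 0.27 (adjusted p = 4.1e-10), but siControl itself was at -1.78 ± 0.20 against control. The inhibitor Arpin fell (-1.20 ± 0.17, adjusted p = 6.2e-11), with 598.5, 741.9 and 676.2 counts in siControl and 269.5, 284.0 and 326.6 in siArp4. Hcls1 showed the deepest fall among the regulators that passed with a mean count of at least 50, from 119.9, 205.0 and 143.8 to 74.1, 37.8 and 37.1 counts (-1.64 ± 0.38, adjusted p = 0.00014), while siControl itself was above control by 1.81 ± 0.34. The GTPase Cdc42 rose from 7316, 7243 and 7578 to 10885, 11086 and 11153 counts (0.58 ± 0.10, adjusted p = 1.1e-07).

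With siArp4+CK666 against siControl, Hcls1 (-2.5003 ± 0.40), Cyfip1 (-1.997 ± 0.16) and Arpin (-1.54 ± 0.17) fell, and Wipf1 (1.86 ± 0.27) and Cttn (0.84 ± 0.13) rose, with DESeq2 adjusted p of 4.6e-09 or lower. The WASH complex member Washc4 rose as well (1.28 ± 0.39, adjusted p = 0.0036), over siControl values of 2980, 959.5 and 1705. That call was lost in edgeR (adjusted p = 0.028) and without siControl replicate 3 or siArp4+CK666 replicate 1 or 2 (adjusted p up to 0.040). Within knockdown cells Pick1 (-0.69 ± 0.19, adjusted p = 0.0035) and Cdc42 (-0.41 ± 0.10, adjusted p = 0.00085) passed on the lower side beside Cyfip1. Both were lost in edgeR (adjusted p = 0.028 and 0.056), with the replicate number as a block (0.011 and 0.020), and without siControl replicate 3 or any 1 library of the contrast (adjusted p up to 0.065 and 0.071), and Cdc42 also with the length trend removed (adjusted p = 0.013). The regulator that was higher there, Abi3, had a mean count under 50. In the test of the difference between the CK666 effects, 1 regulator of 30 was higher, Coro1c (1.02 ± 0.12, adjusted p = 3.5e-15), beside 3.76% of all genes, and 1 was lower, Pick1 (-0.78 ± 0.23, adjusted p = 0.0087), beside 4.06%. This Pick1 call was lost in edgeR (adjusted p = 0.025), with the replicate number as a block (adjusted p = 0.015) and without most single libraries.

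**Figure D5:**
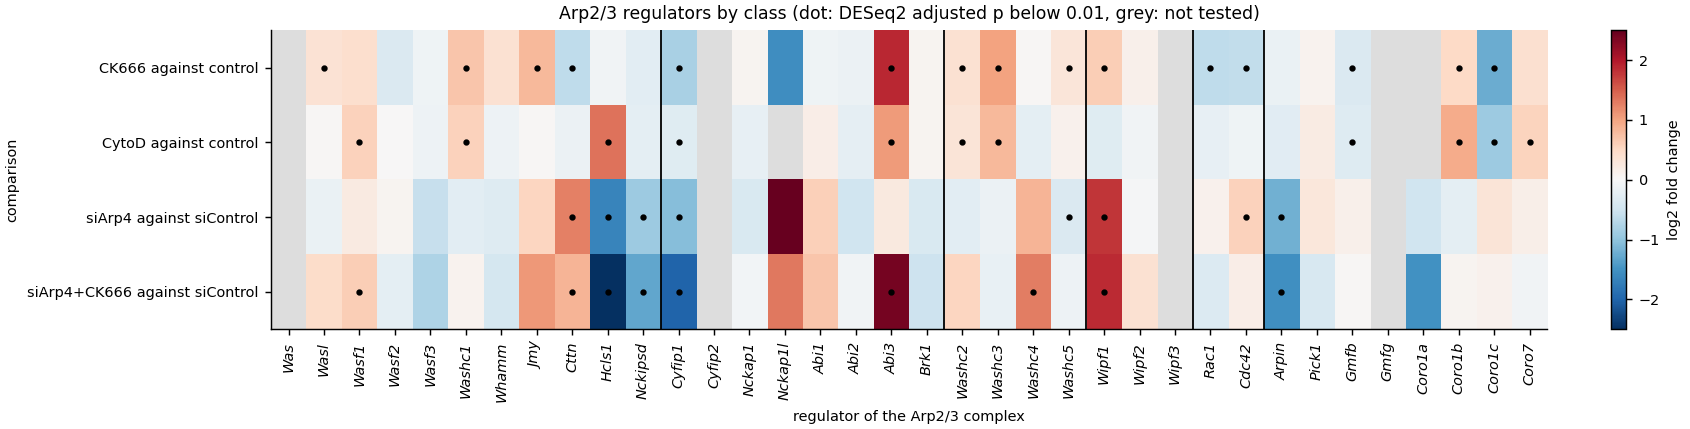
Log2 fold change (colour) of 36 Arp2/3 regulators (x axis, vertical lines part the 6 classes) in 4 comparisons (y axis); dots mark a DESeq2 adjusted p below 0.01 and grey marks genes not tested. Cyfip1 carries a dot on the lower side in all 4 comparisons, though its CytoD call (adjusted p = 0.0091) was lost in edgeR and under other alternatives.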

How the data were processed

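RNA-seq of 18 libraries, 3 in each of 6 groups, was taken from the labels. Per the submitters' processing notes and the study's methods, reads were quantified with Salmon 1.2.1 against GENCODE vM25 on GRCm38. The authors deposited estimated counts for each gene, unscaled; the summing of transcripts to genes is not stated. Libraries were unstranded. Counts were rounded to whole numbers. Of the 54347 gene identifiers 54094 matched GENCODE vM21, which gave symbols, coordinates and lengths, and 253 did not. Replicates differed by a chi-square of at least 6.47 for each degree of freedom, so no library was counted as a repeat of another.

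DESeq2 1.42.0 (R 4.3.3, Wald test, two-sided, Benjamini-Hochberg adjustment over all genes tested) was fitted on the whole table, with group as the only term, to the 9 libraries of each experiment, or to all 18 for the contrasts that span both. A gene passed at an adjusted p below 0.01, and exceeded 2-fold where its absolute log2 fold change was also over 1. Levels are counts divided by the size factors of their experiment. Alternatives were edgeR 4.0.16 (quasi-likelihood, TMM, filterByExpr), TMM size factors, a minimum count of 10 in 3 libraries, other sets of libraries, each library left out, and the replicate number as a block. Removal of each library's length trend and the median transcript length were added after the data were seen. The scripts were tested on simulated data. Total counts and counting error limit the precision of Actr3b alone; for the other members the spread between libraries does.

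All 10 members are named. Of the regulators, the rule named the up to 3 largest rises and 3 largest falls per comparison among those that passed with a mean count of at least 50; for CK666 against CytoD and siControl against control these are not listed. Abi3 within knockdown cells was named after its value was seen. Rac1 and Cdc42 with CK666 are named together as the 2 genes of their class. The 5 genes most like the complex were taken among genes with a mean count of at least 100. Members, lists and tests were chosen with earlier results of these data known.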

Additional observations from a re-analysis of the deposited data

Results flagged for a closer look

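The effect of CK666 on Arpc5 differed between knockdown and untransfected cells, by 0.69 on the log2 scale (DESeq2 adjusted p = 0.00011); Arpc5 is the form of the ARPC5 subunit that fell with CK666 in untransfected cells. The coronin Coro1c differed in the same test by 1.02 (adjusted p = 3.5e-15), and the inhibitor Pick1 by -0.78 (adjusted p = 0.0087). For Coro1c the CK666 change was -1.24 in untransfected cells and -0.21 in knockdown cells, and for Pick1 it was 0.08 and -0.69. The Pick1 call was lost in edgeR (adjusted p = 0.025), with the replicate number as a block (adjusted p = 0.015) and without any 1 of 15 of the 18 libraries (adjusted p up to 0.049), while the difference in Coro1c passed throughout. Knockdown, transfection and experiment cannot be told apart in these differences. Groups of 3 libraries were too small for a test of single outlying libraries.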

How the results depend on the processing

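With the length trend of each library removed, the number of members past the test was 7 for CK666 against control, 4 for CytoD against control, 8 for CK666 against CytoD, 2 for siArp4+CK666 against siArp4 and 2 for the difference between the CK666 effects; in siControl against control Arpc2 (-0.56) and Arpc5 (-0.23) then passed on the lower side, against 0.03 and 0.08 before. Leaving out each library in turn gave 4 to 6 members for CK666 against control, 1 to 5 for CytoD against control (5 without CK666 replicate 1), 4 to 7 between the drugs, 3 to 4 for siArp4, 4 to 5 for siArp4+CK666 against siControl, 0 to 2 for siArp4+CK666 against siArp4, 1 to 2 for the difference between the CK666 effects and 4 to 7 for siControl against control. For siArp4+CK666 against siArp4, 1 member became 0 in edgeR and 0 with the replicate number as a block, with 3 members at an unadjusted p under 0.05 in both, and 3 when all 18 libraries were fitted together. With the libraries of the contrast only, the difference between the CK666 effects had 2 members and siControl against control had 3. The counts for siArp4 and for siArp4+CK666 against siControl stayed within 1.5 times under every alternative. The causes were not tested. Replicate numbers did not pair the libraries: of 18 pairs of the same number, 5 had correlated deviations above 0.1 (range -0.50 to 0.73), and not every library was most like its own number. The replicate block otherwise changed one member call, that of Arpc1a between the drugs (adjusted p = 0.013). The spread of siControl limits what can be read for Arpc3, Arpc4 and Arpc5l in the transfected cells, and small counts limit Actr3b.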
